A study of Glycine max with 16 samples.

Results

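ADR11 and ADR12 are soybean genes named for transcripts whose level falls when auxin is supplied. Their members here were the probe sets that the annotation of the Affymetrix Soybean Genome array pairs with one of these genes and no other, and the genes were picked with their levels across the groups in view. The rule found 3 probe sets of 37593 for soybean, or 2 genes of 6029 that carry a single symbol. ADR11 had 2 probe sets, one with the identifier suffix a_at (the first) and one with x_at (the second), and ADR12 had 1, with x_at. Because their own values chose them, their levels and differences are given as a description, with no test.

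Auxin is perceived by F-box receptors of the TIR1 and AFB family, which in the presence of the hormone mark Aux/IAA repressors for destruction and so free the auxin response factors (ARF) to act on their target genes. Influx carriers of the AUX and LAX family and efflux carriers of the PIN family move the hormone between cells. In seeds auxin is known for its part in embryo patterning, cell expansion and growth, while storage protein synthesis, loss of green colour and drying follow in the later stages.

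The arrays measured RNA from whole seeds (seed coat and embryo together) of MG/BR 46 (Conquista), a cultivar prone to keep its chlorophyll, to find what heat and drought change while seeds mature. Plants of all groups grew with free water in a polytunnel at 24.7 °C on average. From stage R5.5, stressed plants stood in a greenhouse at a mean day temperature of 39.5 °C and were watered only at wilting. Non-stressed plants stayed as they were. Heat, drought and the change of growing place thus cannot be told apart. Seeds were taken at R6 (full-size green seeds), R7 (the onset of maturity) and R8 (mature seeds).

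There were 3 arrays each for stressed R6, stressed R7 and stressed R8 seeds, and 3 for non-stressed R6, 2 for non-stressed R7 and 2 for non-stressed R8 seeds. The study's methods give 3 replicates for every group, more than the 2 available here for non-stressed R7 and non-stressed R8. By the labels each sample came from at least 50 seeds (the study's methods give a smaller minimum), sorted by colour to lessen differences in maturity, and the study's text describes R7 samples as mixtures of seeds at slightly different stages. Each biological replicate joined a pair of the original replicates by that text, so errors measure the spread between such pools.

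Values of the 16 arrays ran between -0.83 and 13.28 on the log2 scale, and 95% of the values of probe sets for other organisms, which serve as a background, lay at or below 0.90. No group mean of the 3 member probe sets was at or below that level. Along the first principal component, which held 69.9% of the variance, stressed R6 seeds lay at -112 ± 4.65 and non-stressed R6 seeds at -155 ± 1.31 (SD, n = 3 each), and stressed R8 seeds at 127 ± 2.04 (n = 3) against 145 ± 3.91 in non-stressed R8 seeds (n = 2). Checked against the label of whole seed, 7 of 13 storage protein genes of the embryo had a probe set and 6 passed the signal minimum; their highest group means ran between 6.59 for CG-1 and 13.18 for GY1, all at R6, while GY3 did not exceed 1.29. The seed coat genes HPS and SCB1 reached means of 9.36 and 5.72 in non-stressed R6 seeds, whereas the seed coat gene ANR1 did not exceed a group mean of 0.36 in any group.

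ADR11 was abundant in R6 seeds, lower under stress there, and close to the bottom of its range from R7 on in both environments. In its first probe set the log2 signals were 9.67, 9.88 and 9.96 in stressed R6 seeds, against 11.32, 11.24 and 11.25 in non-stressed R6 seeds. Every stressed array lay below every non-stressed one, and the spread within either group was small beside the gap. The difference was -1.43 (SE 0.13), a signal 2.70-fold lower under stress.

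The second probe set gave the same order at R6, with 6.91, 7.05 and 7.11 in stressed seeds against 8.78, 8.85 and 9.004 in non-stressed seeds. Its arrays did not overlap either, and the difference of -1.85 (SE 0.14), or 3.61-fold, was larger than in the first probe set. Among the 19194 soybean probe sets with a mean log2 signal above 3 in some group, 28.2% had stressed R6 arrays wholly below the non-stressed ones. Of those 19194, 698 had a difference at R6 as low as that of the first ADR11 probe set or lower.

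Other measures moved with ADR11 at R6. Signals of seed coat genes were summed before the log2 was taken (4 of 5 genes had a probe set, 3 above the signal minimum). This log2 of the sum was 5.88 in stressed R6 seeds against 9.49 in non-stressed R6 seeds. In non-stressed R6 seeds it rested mostly on HPS, which had a mean of 9.36 there. CAB3, a chlorophyll-binding protein gene and the 1 of 5 green tissue genes with a probe set, stood at 6.65 in stressed R6 seeds and 8.32 in non-stressed R6 seeds. The log2 of the summed signals of embryo storage genes differed little, with 14.81 in stressed R6 seeds against 14.82 in non-stressed R6 seeds. In RNA from whole seeds, fewer cells of a type and less RNA per cell cannot be told apart, and the part of the seed coat, the green tissue or the pace of maturation in the ADR11 difference was not tested.

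**Figure D1:**
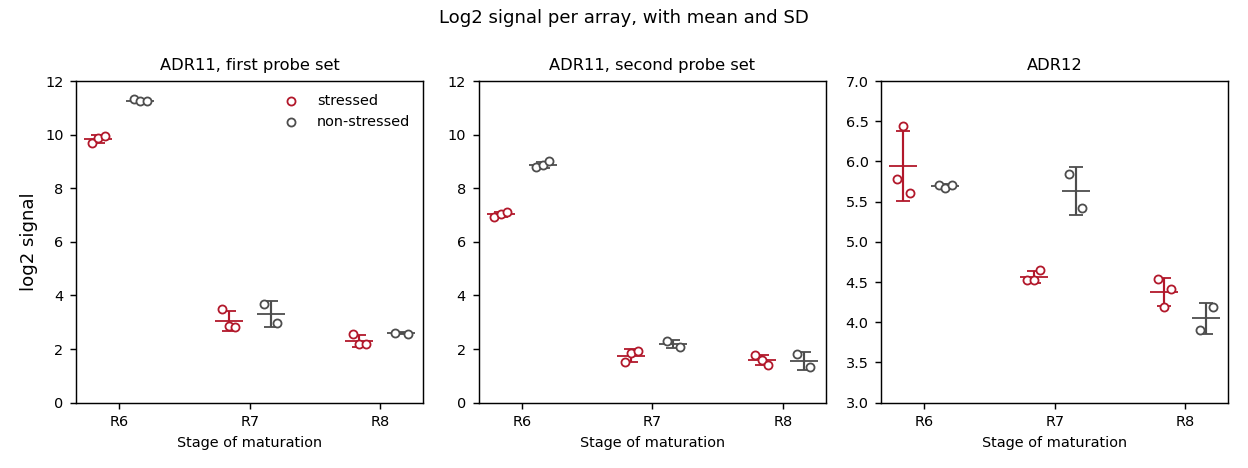
Log2 signal (vertical axis) of the ADR11 probe sets and of ADR12 at R6, R7 and R8 (horizontal axis) in stressed (red, left of each pair) and non-stressed seeds (grey); circles are arrays, and bars are the mean and SD. ADR11 stood high at R6 alone, with non-stressed above stressed arrays, while ADR12, drawn on a narrower axis that does not start at 0, separated the environments most at R7.

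At R7 the first ADR11 probe set read 3.49, 2.86 and 2.82 in stressed seeds, against 3.67 and 2.98 in non-stressed seeds. The groups overlapped, and the difference was -0.27 (SE 0.22). The direction rested on single arrays here, since the difference was -0.61 without non-stressed R7 replicate 2 and 0.0796 without non-stressed R7 replicate 1. The second probe set read 1.5002, 1.85 and 1.92 in stressed R7 seeds against 2.29 and 2.07 in non-stressed R7 seeds, without overlap, where 35.3% of all probe sets above the minimum were wholly lower under stress. That difference was -0.42 (SE 0.17).

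At R8 the first probe set stood at 2.57, 2.18 and 2.17 in stressed seeds and at 2.61 and 2.56 in non-stressed seeds. The highest stressed array fell between the non-stressed ones, and the difference was -0.28 (SE 0.14). The second probe set averaged 1.58 ± 0.18 in stressed R8 seeds (SD, n = 3) and 1.56 ± 0.35 in non-stressed R8 seeds (n = 2), with overlapping arrays. The gap between environments was thus smaller in mature seeds than at R6, and the R8 difference minus the R6 difference was 1.16 (SE 0.19) in the first probe set and 1.87 (SE 0.22) in the second. How far the low signals at R8 narrowed the gap there was not tested.

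The stage differences of ADR11 were far wider than those between environments. Its first probe set averaged 9.84 ± 0.15, 3.06 ± 0.37 and 2.31 ± 0.23 in stressed seeds at R6, R7 and R8 (SD, n = 3 each). Its means in non-stressed seeds were 11.27 ± 0.04 at R6 (3 arrays), 3.32 ± 0.49 at R7 (2 arrays) and 2.58 ± 0.04 at R8 (2 arrays). Nearly the whole of the difference thus lay between R6 and R7, whichever the environment.

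The R7 minus R6 difference was -6.78 (SE 0.20) in stressed seeds and -7.95 (SE 0.22) in non-stressed seeds. R8 minus R7 was small beside it, with -0.75 (SE 0.20) in stressed seeds and -0.74 (SE 0.24) in non-stressed seeds. Over the whole interval, R8 minus R6, ADR11 differed by -7.53 (SE 0.13), or 185-fold, in stressed seeds and by -8.69 (SE 0.14), or 413-fold, in non-stressed seeds. These put the first probe set 5th from the lowest of 19194 in stressed seeds and 8th from the lowest in non-stressed seeds. R8 arrays lay wholly below R6 arrays in 40.2% of those probe sets in stressed seeds and in 42.8% in non-stressed seeds. Measures of RNA quality moved with stage too. The GAPDH 3′ minus middle log2 difference averaged 0.77 at R6 and 1.73 at R8 in stressed seeds, and 0.48 and 1.78 in non-stressed seeds. The actin 3′ minus 5′ log2 difference went the other way, from 2.60 to 2.12 in stressed and from 2.34 to 1.75 in non-stressed seeds. Their part in the stage differences given here was not tested.

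The second ADR11 probe set showed the same course with smaller steps, at -5.45 (SE 0.14) for R8 minus R6 in stressed seeds and -7.32 (SE 0.16) in non-stressed seeds. Its mature-seed means were within 1 log2 unit of the background level of 0.90. How far a fold against such low signals reflects the background removal done upstream was not tested. In order of group means the first probe set ran from non-stressed R6 through stressed R6, non-stressed R7, stressed R7 and non-stressed R8 to stressed R8, and both the R7 pair and the R8 pair overlapped.

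ADR12 behaved otherwise: it held a middling signal in every group, hardly differed between environments at R6, and was lower under stress at R7. At R6 its log2 signals were 5.78, 6.44 and 5.61 in stressed seeds, against 5.71, 5.67 and 5.71 in non-stressed seeds. The stressed arrays spanned the non-stressed ones, and the difference of 0.24 (SE 0.19) came down to 1 array, since without stressed R6 replicate 2 it was -0.0047.

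At R7 ADR12 read 4.52, 4.52 and 4.65 in stressed seeds against 5.85 and 5.42 in non-stressed seeds. All stressed arrays lay below both non-stressed arrays, as they did for 35.3% of the probe sets above the minimum. The difference was -1.07 (SE 0.21), 2.10-fold lower under stress, and 2081 of 19194 probe sets had one as low or lower. The non-stressed R7 arrays also stood apart in measures of RNA quality: the actin 3′ minus 5′ log2 difference averaged 2.45 ± 0.18 in stressed R7 seeds (SD, n = 3) and 3.72 ± 0.76 in non-stressed R7 seeds (n = 2), and the ribosomal RNA probe sets averaged 9.05 in stressed R7 seeds against 6.94 in non-stressed R7 seeds. The log2 of the summed signals of embryo storage genes was 12.45 in stressed R7 seeds and 14.10 in non-stressed R7 seeds. The part of these measures in the ADR12 difference, or in any other stress difference at R7 given here, was not tested.

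In mature R8 seeds ADR12 read 4.53, 4.19 and 4.41 under stress against 3.91 and 4.19 without stress. Stressed seeds were the higher ones here, though the lowest stressed array and the highest non-stressed array both rounded to 4.19. The difference was 0.33 (SE 0.22), or 0.19 without non-stressed R8 replicate 1, and 31.5% of the probe sets above the minimum had stressed R8 arrays wholly above the non-stressed ones. The difference at R8 minus that at R6 was 0.09 (SE 0.29) for ADR12, and it turned sign without stressed R6 replicate 3 (-0.079) or non-stressed R8 replicate 1 (-0.051). The log2 of the summed signals of embryo storage genes was 13.84 in stressed R8 seeds and 11.78 in non-stressed R8 seeds. Their part in the ADR12 difference at R8 was not tested.

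Across stages ADR12 was already low at R7 in stressed seeds, whereas in non-stressed seeds it was low at R8 alone. It averaged 5.94 ± 0.44, 4.56 ± 0.07 and 4.38 ± 0.17 in stressed seeds at R6, R7 and R8 (SD, n = 3 each). Its means in non-stressed seeds were 5.70 ± 0.02 at R6 (3 arrays), 5.63 ± 0.30 at R7 (2 arrays) and 4.05 ± 0.20 at R8 (2 arrays). The means of the environments thus lay farthest apart at R7, a contrast between stages that was not tested.

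The R7 minus R6 difference of ADR12 was -1.38 (SE 0.19) in stressed seeds, where no arrays overlapped. How many probe sets separated so between R6 and R7 was not counted, while 2720 of 19194 had a difference as low or lower. In non-stressed seeds the ADR12 difference was -0.06 (SE 0.21), with overlapping arrays, and 0.15 without non-stressed R7 replicate 2. For R8 minus R7 it was -0.18 (SE 0.19) in stressed seeds and -1.59 (SE 0.23), or 3.01-fold, in non-stressed seeds. R8 minus R6 came to -1.56 (SE 0.19), 2.95-fold, in stressed seeds and -1.65 (SE 0.22), 3.14-fold, in non-stressed seeds. In order of means, stressed R6, non-stressed R6 and non-stressed R7 overlapped as an upper set, stressed R7 and stressed R8 overlapped below them, and non-stressed R8 came last.

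**Figure D2:**
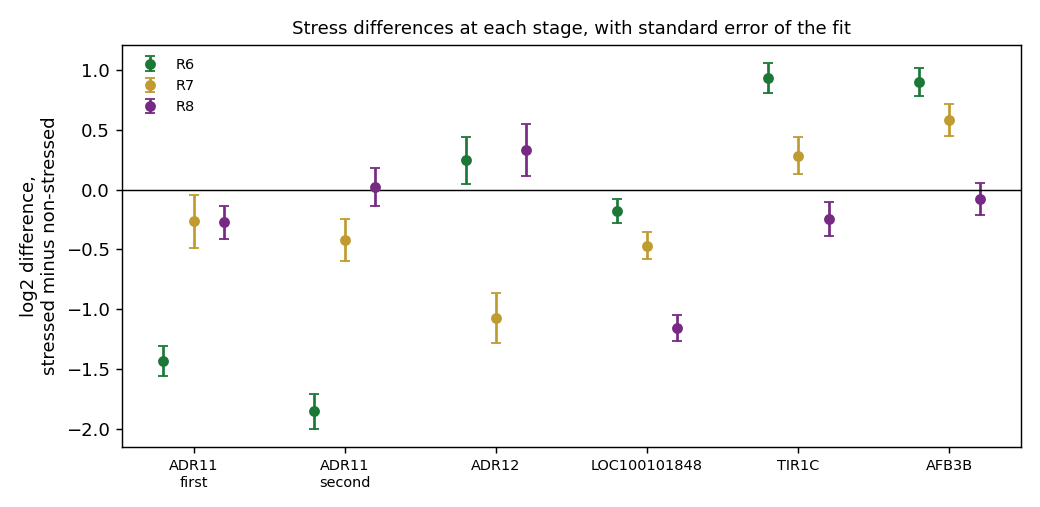
Log2 difference of stressed minus non-stressed seeds (vertical axis) at R6 (green), R7 (gold) and R8 (purple) for the member probe sets and 3 further genes (horizontal axis); points are differences and bars the standard error of the fit. ADR11 was lower under stress chiefly at R6 (-1.43 and -1.85), ADR12 at R7 (-1.07), LOC100101848 at R8 (-1.16), and TIR1C and AFB3B were higher at R6 (0.93 and 0.90).

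The annotation gives LOC100101848, read by a probe set with the suffix s_at, the same sequence record as ADR12. The suffix s marks a probe set shared by several transcripts and the suffix x one in which some probes may bind other transcripts, so the signals of ADR12 and of the second ADR11 probe set may hold some of a relative's. LOC100101848 was among the brightest features, with the highest signal of the whole array on both non-stressed R7 arrays and on 1 stressed R7 array. LOC100101848 stayed high through R7 in both environments, with 12.76, 12.73 and 12.71 in stressed R7 seeds against 13.28 and 13.12 in non-stressed R7 seeds. Its course was thus unlike that of ADR12 in stressed seeds. In non-stressed seeds the courses were alike, since both stayed near their R6 level at R7. R8 minus R6 was then -1.86 for LOC100101848 and -1.65 for ADR12. Both were also lower under stress at R7.

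At R8 LOC100101848 read 9.91, 9.99 and 9.99 in stressed seeds against 10.98 and 11.26 in non-stressed seeds. All stressed arrays were lower, where 35.7% of the probe sets above the minimum showed that order. It fell by 1.16 under stress at R8 (SE 0.11, 2.23-fold, adjusted p = 4.17e-05, limma), against -0.47 at R7 (adjusted p = 0.00381) and -0.18 at R6 (adjusted p = 0.156). The R8 response minus the R6 response was -0.98 (adjusted p = 0.000624, limma), just under 2-fold, in a comparison where 20.3% of probe sets were called. Its R6 signals lay close to the array maxima of 13.14 to 13.24 there, and whether the top of the scale narrowed its differences at R6 and R7 was not tested.

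Other genes of the auxin pathway were read from a list of 6 (TIR1C, AFB3B, AUX22, AUX28, LAX11 and PIN2A). They were picked by symbol, but with earlier results of these data known. A gene was called changed at an adjusted p of 0.05 or less together with a difference of at least 2-fold. Just 2 of the 6, the receptors TIR1C and AFB3B, passed the signal minimum. The Aux/IAA repressor genes AUX22 and AUX28 did not exceed 0.92 and 0.87 on any array, near the background level, and the influx carrier gene LAX11 reached 1.22 and the efflux carrier gene PIN2A 2.43.

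Neither receptor was called in a stress comparison by limma, at R6, R7 or R8, where 14.9%, 18.6% and 8.51% of all probe sets were called. At an unadjusted p of 0.05 the counts of the pair were 2 at R6, 1 at R7 and 0 at R8, beside 10897, 10910 and 8358 of all 19194 probe sets. The median difference of the pair was 0.92 at R6, 0.43 at R7 and -0.16 at R8, beside medians of 0.03, -0.05 and -0.03 over all 19194 probe sets. Both are named because so few genes were left, a choice made after their values were seen.

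TIR1C averaged 7.06 in stressed R6 seeds and 6.12 in non-stressed R6 seeds, a difference of 0.93 (SE 0.12, adjusted p = 0.000168, limma) that was significant but under 2-fold. At R8 it stood at 7.97 in stressed seeds and 8.22 in non-stressed seeds (-0.25, adjusted p = 0.203). From R6 to R8 it rose by 2.09, or 4.26-fold, in non-stressed seeds (adjusted p = 1.28e-07), where 62.8% of probe sets were called, while in stressed seeds the difference was 0.91 (adjusted p = 4.77e-05). The R8 response minus the R6 response was -1.18 (SE 0.19, adjusted p = 0.000791), a comparison in which 20.3% of probe sets were called. TIR1C passed 2-fold at R6 without stressed R6 replicate 2 (1.01), and for R8 minus R6 in stressed seeds without stressed R6 replicate 3 (1.03).

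AFB3B averaged 7.93 in stressed R6 seeds and 7.03 in non-stressed R6 seeds, a difference of 0.90 (SE 0.12, adjusted p = 0.000165, limma), again under 2-fold. Its second probe set had group means of 0.37 to 1.08, near the background level, and is not used here. At R7 the AFB3B difference was 0.58 (adjusted p = 0.00357), where the non-stressed arrays stood apart in RNA quality. At R8 AFB3B had -0.08 (adjusted p = 0.702), or 0.044 without non-stressed R8 replicate 2. It fell by 1.495, or 2.82-fold, for R8 minus R6 in stressed seeds (adjusted p = 6.62e-07), where 54.4% of probe sets were called, and the difference in non-stressed seeds was -0.52 (adjusted p = 0.00386). The R8 response minus the R6 response of AFB3B was -0.98 (adjusted p = 0.00183), just under 2-fold. Among the pair, then, 1 gene was called higher in mature non-stressed seeds and the other was called lower in mature stressed seeds, each relative to R6. In the other environment each differed in the same direction by less than 2-fold, TIR1C by 0.91 in stressed and AFB3B by -0.52 in non-stressed seeds.

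The genes whose pattern was most like that of each member were sought among 695 genes with a name, by Pearson's r over the 16 arrays, which share stage and environment. For ADR11 these were GASA12 (0.996), a member of a gibberellin-regulated peptide family, SGT2 (0.994), LEC1-A (0.992), named after the Arabidopsis embryo regulator LEC1, UGT78K1 (0.989), a flavonoid glucosyltransferase gene of the seed coat, and BES1-12 (0.989), named after an Arabidopsis brassinosteroid response factor. So high an r was common, as 2034 of 19193 other probe sets (10.6%) exceeded 0.9 with ADR11. All 5 had their highest means at R6 and lay near background at R8, as GASA12 shows with means of 0.26 in stressed R8 seeds and 9.44 in stressed R6 seeds. UGT78K1 was low even at R6, with means of 2.73 in stressed seeds and 3.79 in non-stressed seeds.

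These 5 differed in how far stress moved them at R6. The difference was -1.64 (SE 0.19) for SGT2, close to that of ADR11, and -1.06 (SE 0.15) for UGT78K1. It was -0.81 (SE 0.14) for BES1-12, -0.71 (SE 0.10) for GASA12 and -0.24 (SE 0.12) for LEC1-A. The likeness thus lay in the stages more than in the size of the stress difference. The choice by r favours this, since ADR11 differed far more between stages than between environments on these arrays. These 5 also passed the signal minimum through R6 groups alone.

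For ADR12 the closest were BZIP114 (0.948), a bZIP transcription factor gene, the lipoxygenase gene LOX2 (0.947), P34 (0.947), a seed protein of the papain-like protease family, KTI1 (0.935), a Kunitz trypsin inhibitor gene, and the protein kinase gene SPK-3 (0.931). Here 278 probe sets (1.45%) exceeded 0.9. At R7 all 5 were lower in stressed seeds, a direction that the choice by likeness to ADR12 over the same arrays favours, by differences of -2.68 (SE 0.16) for LOX2, -2.26 (SE 0.19) for KTI1 and -1.82 (SE 0.19) for P34. They were -1.68 (SE 0.38) for BZIP114 and -0.86 (SE 0.15) for SPK-3.

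At R8 P34 departed from ADR12, with means of 9.40 in stressed seeds and 7.99 in non-stressed seeds, a difference of 1.41 (SE 0.16) beside 0.33 for ADR12. Ranking by Spearman's rho in place of Pearson's r left 0 of the 5 genes in either list, while r over the 6 group means kept 4 for ADR11 and 5 for ADR12. The names thus depend on the measure of likeness.

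**Figure D3:**
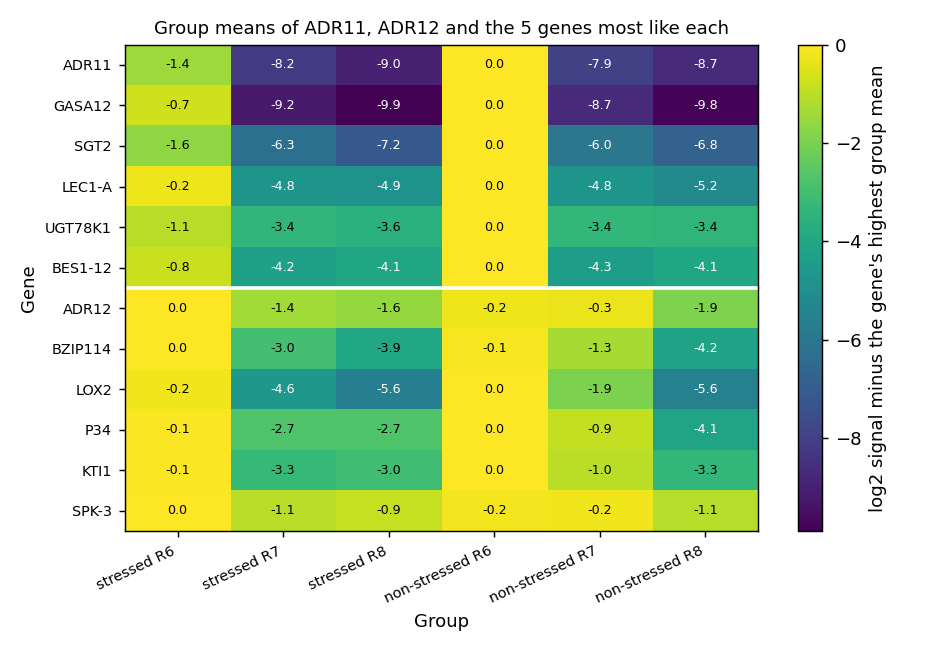
Group means of ADR11, ADR12 and the 5 genes most like each (rows) in the 6 groups (columns), as log2 signal minus each gene's own highest group mean, so that 0 marks its highest group and levels are not compared between genes. ADR11 and its 5 genes are high at R6 in both environments, and ADR12 and its 5 genes are lower in stressed R7 than in non-stressed R7 seeds, where LOX2, BZIP114 and KTI1 are already over 1 log2 unit below their highest group.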

How the data were processed

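RNA of 16 seed samples was hybridised to the 1-colour Affymetrix Soybean Genome array. The deposited matrix holds log2 signals that the authors obtained with RMA, as the submitters' processing notes name it; for its version and settings the sources used here give nothing. Values go below 0 and the soybean medians per array are 1.65 to 2.11, lower than RMA usually gives, so folds against low signals may depend on an unknown background step. No value was rescaled. Of 61170 probe sets, 37593 are for soybean and 23394 for other organisms. Gene names came from the platform annotation, and the 19194 soybean probe sets whose mean passed 3 in any of the 6 groups entered the fit. The study's methods set the same minimum without saying that it applies to group means or to soybean alone, and kept a different number. Of the 19194, 5751 had 1 gene symbol, 286 several and 13157 none.

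limma (version 3.58.1, R 4.3.3) was fitted with 1 mean per group, on the 11 R6 and R8 arrays for comparisons without R7 and on all 16 arrays otherwise. The p-values are two-sided with Benjamini-Hochberg adjustment over the 19194 probe sets. The study's own comparison left R7 out. Simulated arrays with known changes served to test the script. The probe set with the highest mean stood for a gene. The number of arrays limits the precision.

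Named were both members by every probe set, up to 4 called auxin list genes in each stress comparison whose arrays did not overlap (none was called), and the 5 named genes most like each member. The members and lists were chosen with earlier results of these data known. An ARF symbol whose family the tables do not settle was left out of the list's counts. Alternatives were other filters, scalings, fits, probe sets and measures of likeness, a replicate block and leaving out each array. Promoter and protein sequences were not analysed here.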

Additional observations from a re-analysis of the deposited data

Results flagged for a closer look

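ADR12 is listed because its stressed and non-stressed arrays kept opposite orders at successive stages. Its stress difference was -1.07 at R7, where every stressed array was lower, and 0.33 at R8, where every stressed array was higher, by a margin at R8 that disappears on rounding. The difference between these responses was not tested. The pattern was not particular to it. Of its most alike genes, P34 had -1.82 at R7 and 1.41 at R8, KTI1 -2.26 and 0.32, and SPK-3 -0.86 and 0.22. None of these overlapped at either stage, while BZIP114 and LOX2 overlapped at R8. All were chosen by likeness to ADR12 over the same arrays, which favours a shared order. Of all 19194 probe sets, 35.3% were wholly lower under stress at R7 and 31.5% wholly higher at R8. The share with both orders was not counted. The log2 of the summed signals of embryo storage genes was 12.45 in stressed R7 seeds against 14.10 in non-stressed R7 seeds. At R8 it was 13.84 in stressed seeds against 11.78 in non-stressed seeds.

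Genes read beside the members differed in stress response between R8 and R6 by the limma test of that difference. It was -1.18 for TIR1C (adjusted p = 0.000791), which had 0.93 at R6 and -0.25 at R8. It was -0.98 for AFB3B (adjusted p = 0.00183), which had 0.90 at R6 and -0.08 at R8. For LOC100101848 it was also -0.98 (adjusted p = 0.000624), with -0.18 at R6 and -1.16 at R8. The differences of AFB3B and LOC100101848 were just under 2-fold, so TIR1C alone was called. Such differences were common: 20.3% of all probe sets were called in this comparison, and 7853 of 19194 with no minimum fold.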

How the results depend on the processing

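No called result changed direction. Of the small differences with no call, ADR12 R7 minus R6 in non-stressed seeds was 0.18 with centring and 0.15 without non-stressed R7 replicate 2, its difference of responses was -0.062 with array weights, and AFB3B stress at R8 was 0.044 without non-stressed R8 replicate 2; the others that turned sign are among the values here. ADR11 depended mostly on the probe set: by the second alone the stress difference was -1.85 at R6 and 0.0212 at R8, R8 minus R6 was -5.45 in stressed and -7.32 in non-stressed seeds, the R8 response minus the R6 response 1.87, R7 minus R6 -5.27 in stressed and -6.70 in non-stressed seeds, and R8 minus R7 in stressed seeds -0.18. By the mean of both probe sets these were -6.49 and -8.004 for R8 minus R6, 1.52 for the response, -6.02 and -7.32 for R7 minus R6, and -0.46 for R8 minus R7. Centring each array on the median of all soybean probe sets raised R8 minus R6 by 0.29 in stressed and 0.34 in non-stressed seeds, and R7 minus R6 by 0.34 in stressed and 0.24 in non-stressed seeds. ADR11 then had -7.24 and -8.35 for R8 minus R6 and -6.44 for R7 minus R6 in stressed seeds, and ADR12 -1.27, -1.31 and -1.04. The same centring gave 1633 probe sets higher and 1914 lower at R7, or 46.0% higher against 35.6% without it. With centring, with array weights or with no minimum fold, 1 auxin list gene was higher at R8 in stressed seeds, and with centring or no minimum fold 2 had a lower response at R8 than at R6. With no minimum fold, 2 list genes were higher under stress at R6 and 1 at R7, and 1 was lower at R8 in non-stressed seeds; over all probe sets 9615, 9722 and 6447 were then called for stress at R6, R7 and R8, 15934 for R8 minus R6 in stressed seeds and 7853 for the difference of responses. Ranking by Spearman's rho shared 0 genes with either list of most alike genes.

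Leaving out each array in turn, ADR11 ranged over -8.29 to -7.60 for R7 minus R6 and -1.08 to -0.39 for R8 minus R7 in non-stressed seeds, and over -0.61 to 0.0796 for stress at R7. ADR12 ranged over -1.54 to -1.13 for R7 minus R6 and -1.73 to -1.31 for R8 minus R6 in stressed seeds, -0.079 to 0.34 for the difference of responses, and -0.0047 to 0.41 for stress at R6. The count of list genes higher under stress at R6 ranged over 0 to 1 (TIR1C was called without stressed R6 replicate 2), that higher at R8 in stressed seeds over 0 to 1 (TIR1C, without stressed R6 replicate 3), and that of lower responses at R8 over 1 to 2, with AFB3B past 2-fold, at -1.10 to -1.002, once any of 5 arrays was left out (in R6 the first of either environment or the second stressed one, in R8 the second stressed or the first non-stressed one). With the replicate block, ADR11 had -1.43 and ADR12 0.24 for stress at R6, with -1.05 for ADR12 at R7, and no call changed except that the response of LOC100101848 passed 2-fold at -1.002. It also did so with further quantile normalization (-1.09), centring (-1.02), and without non-stressed R8 replicate 1 (-1.12) or stressed R6 replicate 2 (-1.02). Same-numbered samples deviated together weakly or not at all (correlations of -0.22 to 0.37), so the numbers were not taken to pair them. With 2 arrays in non-stressed R7 and R8, single arrays carry much weight there. ADR11 signals from R7 on were low, with group means of 2.31 to 3.32 in the first probe set and 1.56 to 2.18 in the second, above a background level of 0.90. Differences between such low signals are least certain. No probe set pairs a member with further genes, so that alternative gave no value.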

Other observations

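A further probe set, with the suffix x_at, shares the identifier stem of the first ADR11 probe set but carries no gene in the annotation. It averaged 6.96 in stressed R6 seeds and 8.64 in non-stressed R6 seeds, 2.27 in stressed R7 seeds and 1.94 in non-stressed R7 seeds, and 1.35 in stressed R8 seeds and 1.45 in non-stressed R8 seeds. Its stress difference at R6 was -1.67 (SE 0.10), between those of the ADR11 probe sets. The gene listed as ARF, a symbol used both for auxin response factors and for ADP-ribosylation factors, kept group means between 11.32 and 11.77.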
